A study of Mus musculus with 14 samples.

Results

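The prostaglandin genes described here were 2 cyclooxygenases (Ptgs1, Ptgs2), 3 terminal synthases (Ptges, Ptgis, Ptgds), 4 receptors (Ptger1, Ptger4, Ptgfr, Ptgir) and the breakdown enzyme Hpgd, in all 10 of the 49315 genes in the count table. They were chosen by name as one pathway, with their CPM (read counts scaled to library size) in the 4 groups already known, so the levels, fold changes and adjusted p-values below describe the pathway and are not independent evidence for it. RNA came from left ventricles of male mice that were 10 to 12 weeks old at surgery, and poly(A) RNA of each ventricle was sequenced 5 weeks later. Wild-type (WT) mice and HCN4F mice were compared after transverse aortic constriction (TAC), which narrows the aorta around a 27 gauge needle and loads the left ventricle with pressure, or after a Sham operation without constriction. HCN4F is a knock-in of the gain-of-function exchange Y527F in exon 4 of the pacemaker channel gene Hcn4. The study described 16 samples, 4 per group. Analysed here were 14, namely 4 WT-Sham, 2 WT-TAC (replicates 2 and 3), 4 HCN4F-Sham and 4 HCN4F-TAC samples, each described as a biological replicate, so that every value for WT-TAC rests on 2 hearts.

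Prostaglandins are short-lived lipids made from arachidonic acid that phospholipases cut from membranes. The cyclooxygenases, Ptgs1 (COX-1, usually constitutive) and Ptgs2 (COX-2, usually inducible), make the common precursor PGH2, from which Ptges makes PGE2, Ptgis makes prostacyclin and Ptgds makes PGD2. The products act on G protein-coupled receptors. Ptger4 (EP4, for PGE2) and Ptgir (IP, for prostacyclin) couple to Gs and raise cAMP, whereas Ptger1 (EP1, for PGE2) and Ptgfr (FP, for PGF2alpha) act mainly through calcium. Hpgd starts the inactivation of PGE2 and PGF2alpha. In the heart prostacyclin is best known as a vasodilator of the vessel wall and FP signaling for its ability to drive cardiomyocyte growth.

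Library totals ran from 22309914 to 35210939 counts with a median of 27676181, and a count of 0 allows up to 0.0859 to 0.137 CPM (3 counts, counting error only). All 10 genes passed the filter on low counts and belonged to the 15292 genes tested. Their counts per sample ranged from 7 for Ptgs2 to 8619 for Ptgds. Cardiomyocyte markers (Myh6, Tnnt2, Tnni3, Actc1, Ryr2) were high in each sample, which matched the labelled tissue, but their sums separated the groups without overlap. They were 57812 to 59914 CPM in WT-Sham, 53851 and 54032 CPM in WT-TAC, 50131 to 53206 CPM in HCN4F-Sham and 42579 to 48458 CPM in HCN4F-TAC. Of the atrial markers Myl7, Myl4, Sln, Bmp10 and Nppa, HCN4F-TAC replicate 2 showed 9.91 CPM of Myl7 and 3.79 CPM of Sln, while the other TAC samples had at most 0.258 and 0.285 CPM. HCN4F-Sham replicate 1 had the lowest endothelial marker sum of its group at 989 CPM, against 1302 to 1697 CPM in the other 3 samples. In bulk tissue, fewer cells of a type and less RNA per cell cannot be told apart. None of the genes lies on chromosome 9, which carries Hcn4. On GRCm38, 4 of the 10 lie on chromosome 2.

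The promoters of both cyclooxygenases and of Ptger4 are shown because Ptgs2 and Ptger4 gave the largest differences and Ptgs1 is the contrasting isoform. The sequences are from RefSeq (GRCm38.p6), read on the gene's strand over the 250 bases before the start, and capitals mark a C/EBP-type match (TTNNGCAA) in the first line and a CRE core (CGTCA) overlapping an E-box (CACGTG) in the second.
Ptgs2, chr1:150099781-150100030, + strand: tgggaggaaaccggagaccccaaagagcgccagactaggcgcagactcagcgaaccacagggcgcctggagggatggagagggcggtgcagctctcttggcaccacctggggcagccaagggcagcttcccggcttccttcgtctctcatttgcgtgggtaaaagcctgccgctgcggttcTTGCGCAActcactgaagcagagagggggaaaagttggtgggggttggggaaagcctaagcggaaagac
Ptgs2, first 30 transcribed bases, chr1:150100031-150100060, + strand: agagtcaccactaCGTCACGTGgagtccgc
Ptgs1, chr2:36230176-36230425, + strand: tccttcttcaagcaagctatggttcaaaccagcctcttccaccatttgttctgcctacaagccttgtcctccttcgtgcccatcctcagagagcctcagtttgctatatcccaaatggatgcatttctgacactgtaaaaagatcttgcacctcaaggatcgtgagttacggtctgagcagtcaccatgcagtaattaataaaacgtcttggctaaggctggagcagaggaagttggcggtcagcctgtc
Ptger4, chr15:5244188-5244437, - strand: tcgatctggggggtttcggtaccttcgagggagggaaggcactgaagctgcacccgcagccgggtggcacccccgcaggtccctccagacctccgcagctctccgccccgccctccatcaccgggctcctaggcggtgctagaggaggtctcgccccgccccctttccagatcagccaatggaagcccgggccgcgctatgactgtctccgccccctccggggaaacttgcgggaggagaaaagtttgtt
Entries were matched for 8 of the 10 genes. In the 300-base window of each (250 bases before and 50 after the start, both strands), Ptgs2 held all 3 of these motifs, which occurred in 10.8%, 20.8% and 7.15% of the 32851 promoters in the table. Ptgds held an AP-1 match (TGANTCA, 7.81% of promoters) and Hpgd a TATAAA match (13.6%) that lay after the start. The bases checked after the Hpgd start were not found in its annotated transcripts. The full CRE (TGACGTCA, 1.79%) was in none of the 8, and the windows of Ptgs1, Ptges, Ptger4, Ptgfr and Ptgir held none of the 6 motifs. A match describes letters only and shows no binding. The starts are those of the annotated entries and were not mapped here. In the second Ptgs2 line, transcribed means after that annotated start.

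Per kilobase of exon, Ptgds was the highest of the genes in each group and Ptgis the second. In WT-Sham, Ptgds stood at 87.9 to 139 CPM per kb and Ptgis at 4.68 to 6.62 CPM per kb. Hpgd (1.27 to 2.29), Ptgs1 (1.46 to 1.84) and Ptgir (0.947 to 1.44 CPM per kb) followed, where Hpgd and Ptgs1 overlapped and Ptgir ended just under Ptgs1. Ptger4 (0.327 to 0.457) and Ptgfr (0.299 to 0.501 CPM per kb) overlapped. Below them Ptger1 (0.196 to 0.299), Ptges (0.166 to 0.254) and Ptgs2 (0.0554 to 0.159 CPM per kb) closed the order. Ptger1 and Ptges overlapped, and Ptgs2 lay below both. By mean CPM per kb, Ptgs2 ranked 10 of 10 in both Sham groups, 9 in WT-TAC and 7 in HCN4F-TAC.

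**Figure D1:**
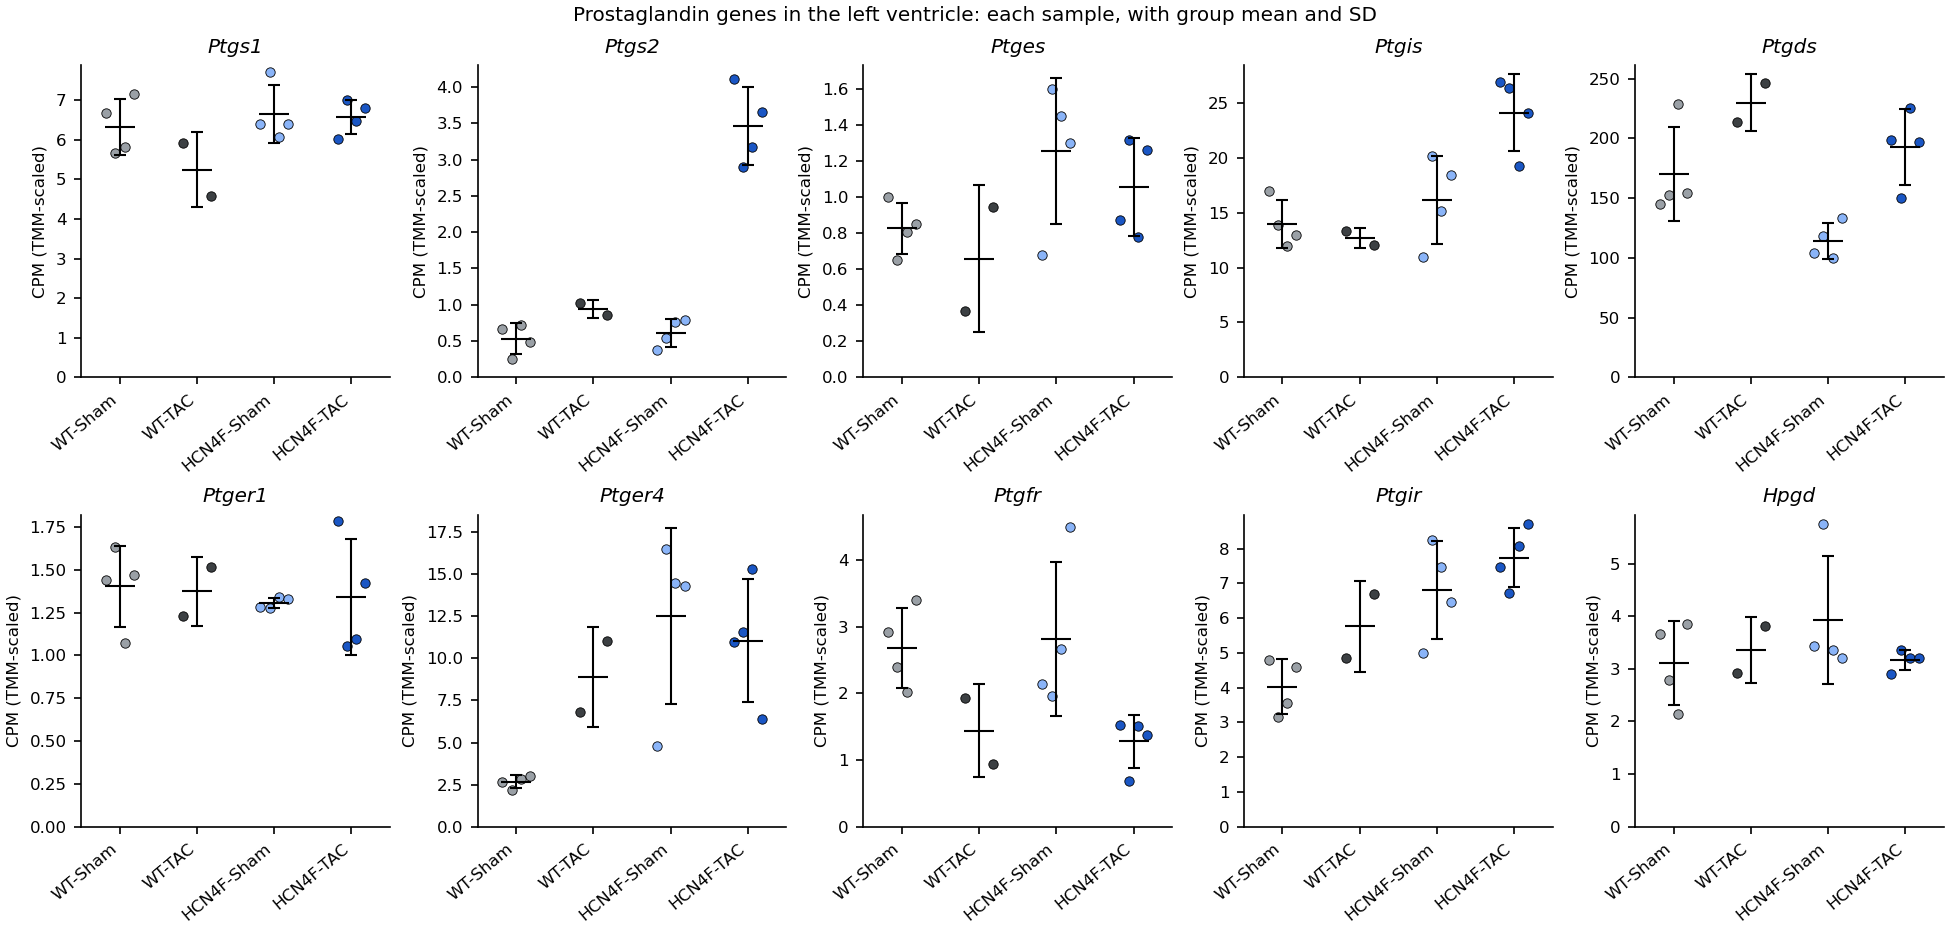
TMM-scaled CPM (vertical axis, from 0) of each of the 10 genes in the 14 samples by group. Points are samples and bars are the group mean with SD. Ptgs2 is at 2.90 to 4.11 CPM in the 4 HCN4F-TAC samples and at most 1.03 CPM elsewhere, and Ptger4 is lowest in the 4 WT-Sham samples.

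The cyclooxygenases parted after TAC, with Ptgs2 higher in HCN4F-TAC than in the other 3 groups and Ptgs1 between 4.58 and 7.71 CPM throughout. Ptgs2 (ENSMUSG00000032487, chr1:150100031-150108227, 11 exon blocks) was at 0.665, 0.254, 0.727 and 0.490 CPM in WT-Sham and at 1.03 and 0.859 CPM in WT-TAC. It was at 0.376, 0.548, 0.759 and 0.785 CPM in HCN4F-Sham and at 4.11, 2.90, 3.18 and 3.66 CPM in HCN4F-TAC. The 4 HCN4F-TAC samples lay above the other 10, the WT-TAC samples lay just above WT-Sham, and the Sham groups overlapped. TAC against Sham in HCN4F gave a rise of 2.45 ± 0.25 on the log2 scale (SE, 4 against 4 samples, adjusted p = 2.8e-05, edgeR's quasi-likelihood test, adjusted after Benjamini and Hochberg over the 15292 genes). In WT the same comparison gave 0.81 ± 0.35 (2 against 4 samples, adjusted p = 0.179, edgeR). After TAC, HCN4F exceeded WT by 1.88 ± 0.31 (4 against 2 samples, adjusted p = 0.0176, edgeR), and in Sham hearts the difference was 0.24 ± 0.31 (adjusted p = 0.757, edgeR).

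For Ptgs2 the TAC effect in HCN4F minus that in WT was 1.64 ± 0.44 on the log2 scale and did not pass after adjustment (adjusted p = 0.394, edgeR interaction term). The rise in HCN4F held with each sample left out in turn, at 2.28 to 2.61. The difference between genotypes after TAC kept its size (1.74 to 2.00) but not its call without WT-TAC replicate 2 (2.00, adjusted p = 0.264), WT-TAC replicate 3 (1.74, 0.174) or HCN4F-TAC replicate 4 (1.85, 0.0554), nor with edgeR on the compared groups alone (1.88, 0.0608).

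Ptgs1 (ENSMUSG00000047250, chr2:36230426-36252272) ranged from 5.66 to 7.15 CPM in WT-Sham and from 6.07 to 7.71 CPM in HCN4F-Sham. It was at 5.92 and 4.58 CPM in WT-TAC and from 6.01 to 7.01 CPM in HCN4F-TAC. TAC against Sham was -0.28 ± 0.15 in WT (adjusted p = 0.273) and -0.01 ± 0.12 in HCN4F (adjusted p = 0.963, edgeR). After TAC, HCN4F exceeded WT by 0.33 ± 0.15 without overlap (adjusted p = 0.362, edgeR). Within a sample, the ratio of Ptgs2 to Ptgs1 in CPM per kb was 0.0381 to 0.106 in WT-Sham, 0.147 and 0.159 in WT-TAC, 0.0499 to 0.106 in HCN4F-Sham and 0.350 to 0.579 in HCN4F-TAC. Ptgs1 thus stood above Ptgs2 in all 14 samples, and the ratio was highest in the 4 HCN4F-TAC samples.

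**Figure D2:**
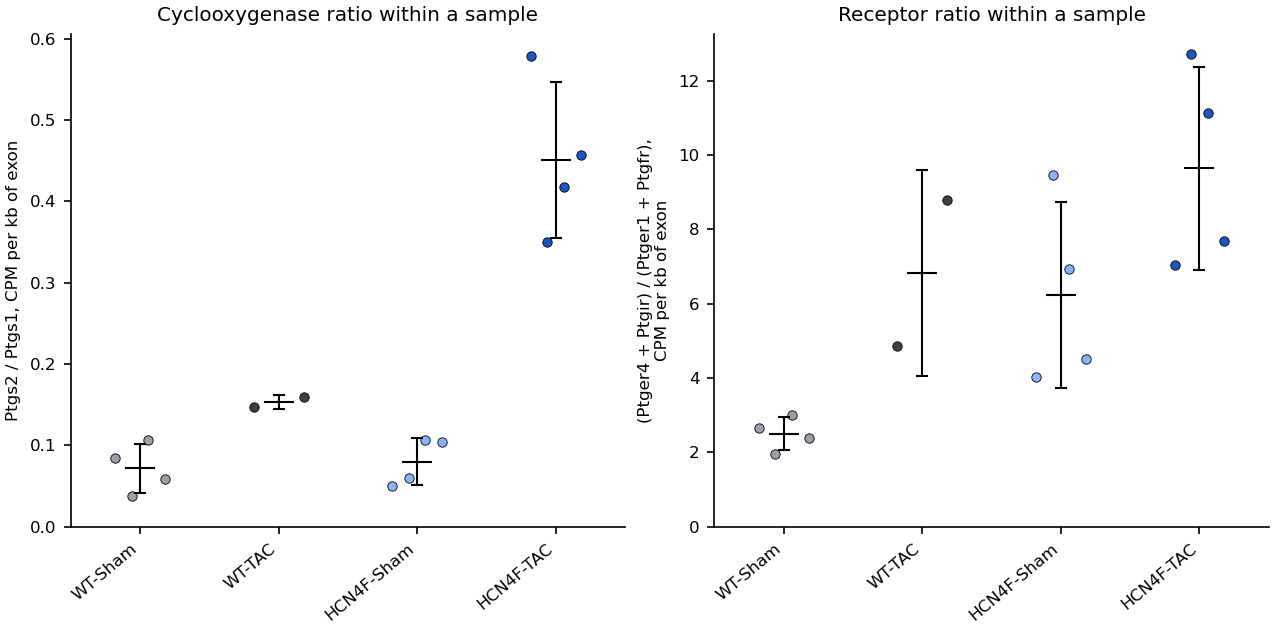
Left, Ptgs2 divided by Ptgs1 in each sample, and right, Ptger4 and Ptgir summed (Gs-coupled) divided by Ptger1 and Ptgfr summed (calcium-coupled), all in CPM per kb of exon, with group mean and SD. Other receptors are not in these sums. The left ratio is 0.350 to 0.579 in HCN4F-TAC and at most 0.159 elsewhere, and the right ratio is at most 3.01 in WT-Sham and at least 4.03 in the other 3 groups.

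Markers of activated fibroblasts (Postn, Cthrc1, Fn1, Col8a1, Tnc) were, like Ptgs2, highest in HCN4F-TAC by their sum. Their summed level was 80.2 to 87.1 CPM in WT-Sham, 124 and 135 CPM in WT-TAC, 71.6 to 113 CPM in HCN4F-Sham and 152 to 372 CPM in HCN4F-TAC, and none of the 5 was at 0. With TAC, 4 of the 5 were called in HCN4F and 1 of the 5 in WT (Col8a1). Between genotypes after TAC edgeR called 0 of the 5, with all 5 at an unadjusted p under 0.05, and DESeq2 called 3. HCN4F-TAC replicate 3 had the lowest marker sum of its group at 152 CPM, close to the WT-TAC samples, and 3.18 CPM of Ptgs2, against 1.03 and 0.859 CPM in WT-TAC. HCN4F-TAC replicate 2 had the highest sum at 372 CPM and the lowest Ptgs2 of the group at 2.90 CPM. The sum of atrial markers was also highest in HCN4F-TAC at 412 to 1863 CPM, mostly Nppa, with Bmp10 at 0 CPM in replicates 2 and 3. Fibroblast markers (Pdgfra, Dcn, Col1a1, Tcf21, Lum) summed to 529 to 823 CPM in HCN4F-TAC, 449 to 567 CPM in HCN4F-Sham, 418 and 479 CPM in WT-TAC and 463 to 476 CPM in WT-Sham, and 1 of the 5, Col1a1, was called after TAC in HCN4F (1.14, adjusted p = 0.00125, edgeR). The cardiomyocyte sum was lowest in the same group. The part of these in the Ptgs2 difference was not tested. Among 12564 genes with a mean of 1 CPM or more, those with log2 CPM most like Ptgs2 over the 14 samples were Ugdh (Pearson's r = 0.947), Vcan (0.941) and Tgfb2 (0.934). Ugdh makes the sugar precursor of hyaluronan, Vcan is the matrix proteoglycan versican and Tgfb2 is a TGF-beta ligand. The points share libraries and 4 groups, so r is a description.

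**Figure D3:**
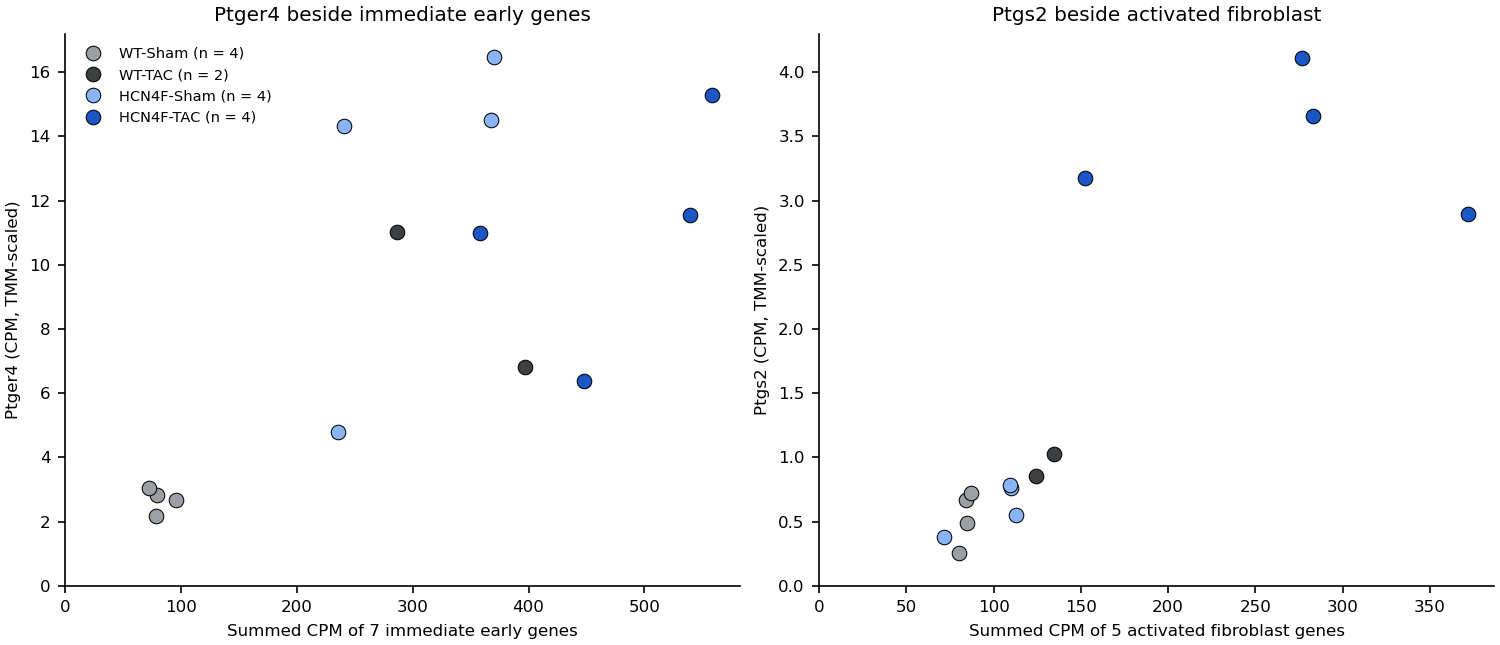
Each point is 1 sample, coloured by group. Left, Ptger4 (CPM) against the summed CPM of 7 immediate early genes, where the 4 WT-Sham samples sit apart at 71.8 to 95.9 CPM. Right, Ptgs2 (CPM) against the summed CPM of 5 activated fibroblast genes, where HCN4F-TAC replicate 3 combines 152 CPM with 3.18 CPM of Ptgs2.

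Among the synthases, those for prostacyclin and PGD2 rose after TAC in HCN4F by less than the 2-fold threshold, and Ptges did not pass the test in any comparison. Ptgis (prostacyclin synthase, ENSMUSG00000017969, chr2:167191805-167240604) was at 17.0, 13.9, 12.01 and 13 CPM in WT-Sham, at 13.4 and 12.1 CPM in WT-TAC, at 10.9, 20.1, 15.1 and 18.4 CPM in HCN4F-Sham and at 26.9, 26.3, 19.2 and 24.0 CPM in HCN4F-TAC. The HCN4F-TAC samples lay above both WT groups and overlapped the highest HCN4F-Sham sample. TAC against Sham in HCN4F was 0.58 ± 0.16 (adjusted p = 0.0272, edgeR), a 1.49-fold rise. Its adjusted p was above 0.05 with no filter on low counts (0.075), with edgeR on the compared groups (0.0706) and without HCN4F-Sham replicate 3 (0.069) or HCN4F-TAC replicate 1 (0.0754), 2 (0.0874) or 4 (0.0571). HCN4F-TAC, the group with the highest Ptgis, also had the lowest cardiomyocyte sum and the highest activated fibroblast and fibroblast sums, whose part in the Ptgis values was not tested. In WT it was -0.14 ± 0.20 (adjusted p = 0.735, edgeR). HCN4F exceeded WT after TAC by 0.92 ± 0.21 (adjusted p = 0.102), or by 1.02 and past both thresholds without HCN4F-TAC replicate 3 (adjusted p = 0.0145, edgeR). With edgeR the adjusted p was also under 0.05 without HCN4F-Sham replicate 1 (0.0312), and with DESeq2 on all groups it was 0.00299 at 0.92 and on the compared groups 2.8e-05 at 0.92. The interaction was 0.72 ± 0.26 (adjusted p = 0.467, edgeR). Genes most like Ptgis were Parp9 (r = 0.949), Vat1 (0.935) and Arf3 (0.933). Exons of an antisense transcript, 1110018N20Rik, cover 6.08% of the exon length of Ptgis, and whether the counting used strand is not given.

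Ptgds (lipocalin-type PGD2 synthase, ENSMUSG00000015090, chr2:25466709-25470046) is also a secreted carrier of lipids. It was at 145, 152, 229 and 154 CPM in WT-Sham, at 213 and 247 CPM in WT-TAC, at 104, 118, 100.3 and 133 CPM in HCN4F-Sham and at 198, 150.1, 226 and 197 CPM in HCN4F-TAC. The 4 HCN4F-Sham samples were the lowest of the 14. Ptgds rose after TAC in HCN4F by 0.76 ± 0.15 on the log2 scale (1.69-fold, adjusted p = 0.0045, edgeR), without overlap of the groups. Over these samples the cardiomyocyte sum fell and the activated fibroblast sum rose without overlap, and their part in the Ptgds difference was not tested. In WT the difference was 0.44 ± 0.18 (adjusted p = 0.174), and WT-Sham replicate 3 lay within the WT-TAC range (0.61 without it, adjusted p = 0.0358, edgeR). HCN4F against WT in Sham was -0.58 ± 0.15 with an adjusted p of 0.102 by edgeR and 0.0119 by DESeq2, and after TAC the difference was -0.25 ± 0.18 (adjusted p = 0.607, edgeR). The genes most like Ptgds were 2310020H05Rik (r = 0.894), Zmynd11 (0.875) and Sypl2 (0.868).

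Ptges (microsomal PGE2 synthase, ENSMUSG00000050737, chr2:30889471-30929863) was low, from 0.370 to 1.60 CPM and from 9 to 43 counts per sample. Of other synthases outside the 10 genes, Ptges2 had group means of 44.7 to 54.9 CPM and Ptges3 of 58.9 to 64.0 CPM. HCN4F-Sham replicate 1 at 0.677 CPM lay among the WT-Sham samples (0.653 to 0.998 CPM), while the other 3 HCN4F-Sham samples were at 1.30 to 1.60 CPM. The fitted difference in Sham hearts was 0.60 ± 0.30 (adjusted p = 0.356, edgeR). The 2 WT-TAC samples were 0.370 and 0.944 CPM, so that TAC against Sham in WT was -0.27 ± 0.39 (adjusted p = 0.729) and took either sign depending on which of them was kept (-1.15 to 0.20).

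The largest differences among the receptors were in Ptger4, which was lowest in WT-Sham and higher in the other 3 groups. Ptger4 (ENSMUSG00000039942, chr15:5206661-5244187) was at 2.66, 2.18, 2.83 and 3.04 CPM in WT-Sham and at 6.82 and 11.0 CPM in WT-TAC. It was at 4.78, 16.5, 14.5 and 14.3 CPM in HCN4F-Sham and at 11.0, 11.6, 15.3 and 6.39 CPM in HCN4F-TAC. No sample of the other groups fell into the WT-Sham range, whereas the 2 HCN4F groups overlapped each other and WT-TAC. In Sham hearts HCN4F exceeded WT by 2.22 ± 0.38 on the log2 scale (4.66-fold, adjusted p = 0.0282, edgeR). In WT Ptger4 rose after TAC by 1.74 ± 0.44 (3.35-fold, adjusted p = 0.0443), and TAC against Sham in HCN4F was -0.17 ± 0.33 (adjusted p = 0.78, edgeR). After TAC the genotypes differed by 0.30 ± 0.42 (adjusted p = 0.825, edgeR). The interaction was -1.92 ± 0.55 and did not pass (adjusted p = 0.42, edgeR). Both comparisons with a call use the same WT-Sham samples.

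Both Ptger4 calls were near the threshold, and the one in WT was lost with no filter on low counts (1.77, adjusted p = 0.09, edgeR). Leaving out 1 sample gave 1.35 to 2.04 and ended the call in 10 of 14 cases in WT after TAC (adjusted p up to 0.364, without WT-TAC replicate 3), and gave 2.07 to 2.49 with the call ended in 7 of 14 cases in Sham hearts (adjusted p up to 0.1002, without WT-Sham replicate 2). Without HCN4F-Sham replicate 1, the sample with the low endothelial sum and the lowest Ptger4 of its group, the difference in Sham hearts was 2.49 (adjusted p = 0.000307, edgeR). That sample was also the lowest HCN4F-Sham sample for Ptgs2, Ptges, Ptgis and Ptgir, and the part of its cell makeup in these values was not tested.

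Immediate early genes (Fos, Fosb, Junb, Egr1, Nr4a1, Ier2, Atf3), which respond quickly to many stimuli, were also lowest in WT-Sham by their sum. Their summed level was 71.8 to 95.9 CPM in WT-Sham, 287 and 397 CPM in WT-TAC, 235 to 370 CPM in HCN4F-Sham and 358 to 558 CPM in HCN4F-TAC. Of the 7, 4 were called higher after TAC in WT, 4 in HCN4F-Sham against WT-Sham and 3 after TAC in HCN4F. Egr1 was at 9.56 to 18.5 CPM in WT-Sham and at 109 to 257 CPM in all other samples. Members of the list differed in how they stood to Ptger4. Egr1, Junb and Ier2 were called in the same 2 comparisons as Ptger4, at 3.63, 1.95 and 1.46 after TAC in WT and at 3.65, 1.63 and 1.54 in Sham hearts, and not in the other 2, although Junb was at 0.93 after TAC in HCN4F (adjusted p = 0.00828, edgeR). Fos, Nr4a1 and Atf3 rose after TAC in HCN4F, where Ptger4 was at -0.17, and in Sham hearts Atf3 was at -0.78 (adjusted p = 0.508, edgeR). Fos was also called in both Ptger4 comparisons, at 2.55 after TAC in WT and at 1.9 in Sham hearts. Fosb was called in no comparison. HCN4F-Sham replicates 1 and 4 had sums of 235 and 240 CPM beside 4.78 and 14.3 CPM of Ptger4. Neutrophil markers (S100a8, S100a9, Csf3r, Retnlg) were lowest in WT-Sham as well, at a sum of 0.535 to 1.23 CPM, against 2.23 and 3.41 CPM in WT-TAC, 1.83 to 2.75 CPM in HCN4F-Sham and 1.70 to 5.16 CPM in HCN4F-TAC, with 1 of the 4 at 0 in WT-Sham. After TAC in WT edgeR called 2 of the 4, S100a8 (2.73, adjusted p = 0.0248) and S100a9 (2.91, adjusted p = 0.0409), and DESeq2 called 0. In Sham hearts edgeR called 0 of the 4, with 3 at an unadjusted p under 0.05, and DESeq2 called 1. The part of both lists in the Ptger4 differences was not tested.

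Ptgir (ENSMUSG00000043017, chr7:16906490-16910905) also had its lowest mean in WT-Sham. It was at 4.80, 3.16, 3.56 and 4.61 CPM in WT-Sham, at 4.85 and 6.70 CPM in WT-TAC, at 5.01, 8.26, 7.48 and 6.46 CPM in HCN4F-Sham and at 7.46, 6.72, 8.09 and 8.71 CPM in HCN4F-TAC. WT-Sham did not overlap the other groups, but its highest value was close to the lowest of WT-TAC and HCN4F-Sham. HCN4F against WT in Sham was 0.75 ± 0.17 (1.68-fold, adjusted p = 0.0597), which missed the threshold with edgeR and passed it with DESeq2 (adjusted p = 0.00452), and TAC against Sham in WT was 0.53 ± 0.20 (adjusted p = 0.142, edgeR). After TAC the genotypes differed by 0.41 ± 0.20 (adjusted p = 0.417, edgeR).

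Ptgfr (ENSMUSG00000028036, chr3:151796502-151837630) was lower after TAC, with a call in HCN4F. It was at 2.92, 2.39, 2.03 and 3.40 CPM in WT-Sham, at 1.93 and 0.944 CPM in WT-TAC, at 2.15, 1.96, 2.68 and 4.498 CPM in HCN4F-Sham and at 1.53, 0.692, 1.52 and 1.38 CPM in HCN4F-TAC. Each TAC group lay below the Sham group of its genotype. In HCN4F Ptgfr fell by 1.17 ± 0.31 on the log2 scale (adjusted p = 0.0205, edgeR), or by 0.83 without HCN4F-Sham replicate 4 (adjusted p = 0.0769) and 0.95 without HCN4F-TAC replicate 2 (adjusted p = 0.0669, edgeR), where it was no longer called. Over the same samples the cardiomyocyte sum was lower and the activated fibroblast sum higher after TAC without overlap, and of 4 mast cell markers (Cpa3, Cma1, Mcpt4, Kit), which summed to 7.15 to 12.4 CPM in HCN4F-Sham and 7.77 to 9.29 CPM in HCN4F-TAC, 1 was called lower (Cma1, -1.38, adjusted p = 0.0222, edgeR). HCN4F-TAC replicate 2, the lowest of the 14 samples for Ptgfr, was also the sample with 9.91 CPM of Myl7 and 3.79 CPM of Sln (atrial markers). The part of these markers in the Ptgfr difference was not tested. In WT the difference was -0.94 ± 0.39 (adjusted p = 0.167), and between genotypes it was 0.09 ± 0.29 in Sham and -0.14 ± 0.41 after TAC (edgeR). The interaction of -0.23 ± 0.50 (adjusted p = 0.926, edgeR) gave no difference between the genotypes beyond its error.

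Ptger1 (ENSMUSG00000019464, chr8:83666678-83672753) ranged from 1.05 to 1.78 CPM over all samples, and its 4 fitted differences lay between -0.11 and 0.02 with SEs of 0.20 to 0.24. Whether the counting used strand is not given, and the Ptger1 level is uncertain. Ptger4 and Ptgir summed exceeded Ptger1 and Ptgfr summed 1.95 to 3.01 times in WT-Sham, 4.86 and 8.79 times in WT-TAC, 4.03 to 9.47 times in HCN4F-Sham and 7.04 to 12.7 times in HCN4F-TAC, in CPM per kb. WT-Sham did not overlap the other groups, and this ratio was not tested. It holds only these 4 genes, with the uncertain level of Ptger1 among them. Tbxa2r, the thromboxane receptor, is outside it and had means of 2.67 CPM in WT-Sham, 2.96 CPM in WT-TAC, 3.15 CPM in HCN4F-Sham and 4.59 CPM in HCN4F-TAC.

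Hpgd (15-hydroxyprostaglandin dehydrogenase, ENSMUSG00000031613, chr8:56294585-56321043) was at 2.14 to 3.86 CPM in WT-Sham, 2.92 and 3.81 CPM in WT-TAC, 3.20 to 5.75 CPM in HCN4F-Sham and 2.90 to 3.36 CPM in HCN4F-TAC. The groups overlapped in all comparisons. Fitted differences ran from -0.29 ± 0.20 for TAC in HCN4F (adjusted p = 0.366) to 0.32 ± 0.20 for HCN4F in Sham (adjusted p = 0.474, edgeR). The genes most like Hpgd over the samples were Klk8 (r = 0.859), Sirt7 (0.845) and Coro1b (0.837).

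**Figure D4:**
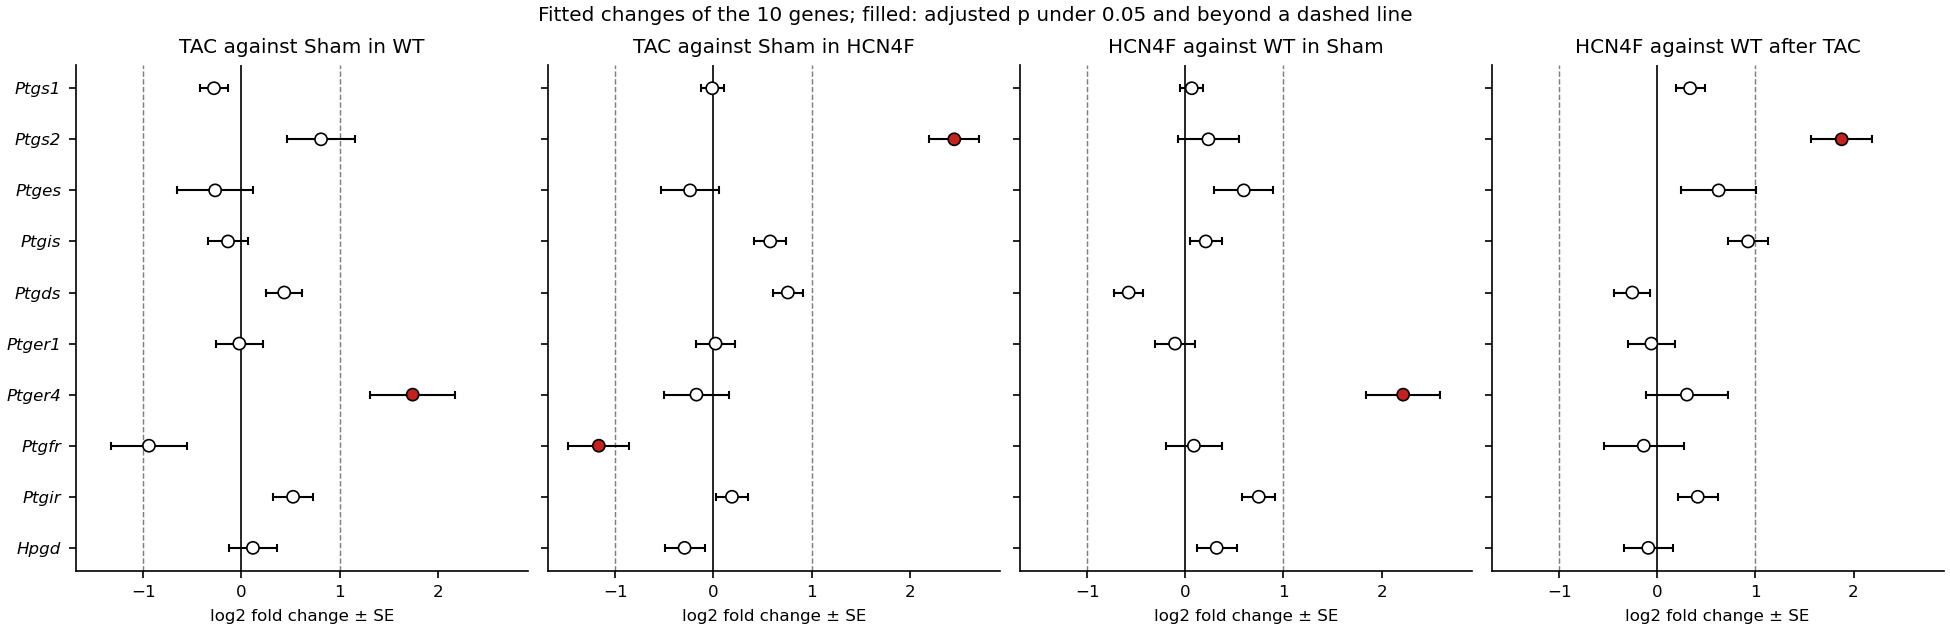
Fitted log2 fold change with SE (horizontal axis) of the 10 genes in each of the 4 comparisons. Filled points have an adjusted p under 0.05 and lie beyond a dashed line at 1 or -1. Filled are Ptger4 in WT after TAC (1.74), Ptgs2 (2.45) and Ptgfr (-1.17) in HCN4F after TAC, Ptger4 in Sham hearts (2.22) and Ptgs2 between genotypes after TAC (1.88).

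Counted over the pathway, few genes were called in each comparison. A gene was called when its adjusted p was under 0.05 and its log2 fold change above 1 or below -1. After TAC in WT, 1 of the 10 was called higher (Ptger4) and 0 lower by edgeR and by DESeq2, with 1 lower at an unadjusted p under 0.05 (Ptgfr), while 0.445% of all tested genes were called higher and 0.262% lower. After TAC in HCN4F, 1 was called higher (Ptgs2) and 1 lower (Ptgfr), beside 1.58% and 1.16% of all genes. HCN4F against WT in Sham gave 1 higher (Ptger4) and 0 lower by edgeR and DESeq2, with 1 lower at an unadjusted p under 0.05 (Ptgds), beside 0.085% and 0.124% of all genes. HCN4F against WT after TAC gave 1 higher (Ptgs2) and 0 lower by both tools, with 0 lower at an unadjusted p under 0.05, beside 0.0392% and 0.0327% of all genes. The rule of choice used these same comparisons, so nothing is read from the counts. The median log2 fold change of the 10 genes was 0.05, 0.01, 0.22 and 0.32 in these comparisons, beside -0.02, -0.01, 0.01 and 0.00 for all tested genes. For the interaction edgeR called 0.0% of genes and 0 of the 10, with 3 of the 10 (Ptgs2, Ptgis, Ptger4) and 1418 of all genes at an unadjusted p under 0.05, and DESeq2 called 0 of the 10.

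**Figure D5:**
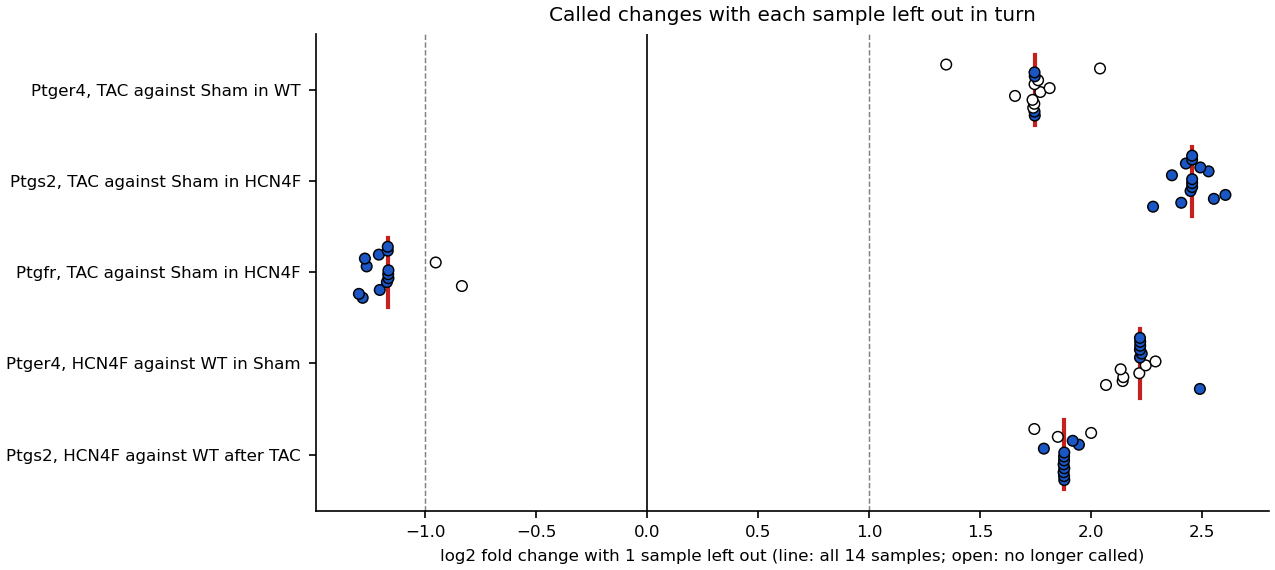
Log2 fold change (horizontal axis) of the 5 called differences with each of the 14 samples left out in turn. The vertical line is the value with all samples, filled points kept the call and open points lost it. Ptgs2 after TAC in HCN4F kept it throughout, and Ptger4 in WT lost it in 10 of 14 cases.

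Around these genes, 33 others of the eicosanoid pathway were followed (arachidonate release, other synthases and receptors, transport and breakdown, lipoxygenases), of which 28 were tested. By edgeR 1 of them was called in 1 comparison (1.16% of all genes were called lower there), Pla2g5, a secreted phospholipase A2, which fell after TAC in HCN4F from 26.99 CPM (20.03 to 35.7) to 12.98 CPM (9.19 to 19.5), or by 1.05 ± 0.28 on the log2 scale (adjusted p = 0.0251). In WT Pla2g5 was at 39.4 CPM in Sham and 21.4 CPM after TAC, a difference of -0.89 ± 0.34 (adjusted p = 0.148, edgeR). After TAC in HCN4F the cardiomyocyte sum also fell and the activated fibroblast sum rose without overlap. The part of these sums in the Pla2g5 difference was not tested. Pla2g4a, the cytosolic phospholipase A2 that releases arachidonic acid, rose in HCN4F from 2.00 to 3.96 CPM, 0.99 ± 0.19 on the log2 scale with an adjusted p of 0.00265 (edgeR), just short of the fold threshold, and DESeq2 called it (1.00). In WT Pla2g4a was at 1.39 CPM in Sham and 2.29 CPM after TAC, a difference of 0.71 ± 0.24 (adjusted p = 0.09985, edgeR). The 2 phospholipases thus differed in direction after TAC in both genotypes, and passed the adjusted p only in HCN4F. Ptgfrn, which binds the FP receptor, rose by 0.54 in HCN4F (adjusted p = 0.00146) and by 0.41 in WT (adjusted p = 0.0498), and Cbr1, a carbonyl reductase that acts on PGE2, fell by 0.34 in HCN4F (adjusted p = 0.00702) and by 0.41 in WT (adjusted p = 0.027). Alox5, the 5-lipoxygenase, fell by 0.67 in HCN4F (adjusted p = 0.0486) and was at 0.17 in WT (adjusted p = 0.737, edgeR). Between genotypes edgeR and DESeq2 called 0 of the 28 in either direction, with 3 higher and 2 lower in Sham and 6 higher and 1 lower after TAC at an unadjusted p under 0.05, beside 2323 and 1904 of all 15292 genes in both directions. Median log2 fold changes of the 28 were -0.11 and -0.05 for TAC in WT and HCN4F and 0.10 and 0.09 for HCN4F against WT in Sham and after TAC.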

How the data were processed

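The authors deposited one table of raw read counts per gene, with mouse Ensembl IDs and symbols, made from poly(A) RNA-seq of left ventricle. The submitters' processing notes name GRCm38. The aligner, counting tool and strand setting are not given in the sources used here. Of its per-sample columns, 2, both with TAC and WT in their names, matched no labelled sample and were not used, so that WT-TAC has 2 samples here. No authors' fold changes were used.

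From the counts, CPM was computed on TMM-scaled library sizes. Genes kept by filterByExpr were fitted with edgeR 4.0.16 (R 4.3.3), robust quasi-likelihood, 1 mean per group over the 14 samples, with Benjamini-Hochberg adjustment over 15292 genes. The study's thresholds (adjusted p 0.05, log2 fold change 1) were kept. DESeq2 1.42.0 and other settings were alternatives. Likeness was Pearson's r of log2 CPM (prior count 2) for the genes Ptgs2, Ptgis, Ptgds and Hpgd. Exon lengths and overlaps came from GENCODE release 21 of mouse. The scripts were tested on simulated counts.

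The genes, the pathway list and the marker lists were chosen with earlier results of these data known. All 10 genes were named, other pathway genes where the adjusted p passed, and marker lists where their sums moved with a result. Pla2g4a, Ptgfrn, Cbr1 and Alox5, with no edgeR call, were named after their values were seen. So were Ptges2, Ptges3 and Tbxa2r, whose adjusted p passed in no comparison, for their levels. One annotation result is not reported here.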

Additional observations from a re-analysis of the deposited data

Results flagged for a closer look

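In groups of 4 samples, the gap of the highest or lowest sample to its neighbour was divided by the range of the group (Dixon's test at its 95% critical value). Of 30 groups tested, 2 had a distant sample, and chance gives about 1 in 20. Ptgds in WT-Sham replicate 3 stood at 229 CPM (0.893 of the range), beside 145 to 154 CPM in the other 3 samples. Hpgd in HCN4F-Sham replicate 2 stood at 5.75 CPM (0.912 of the range), beside 3.20 to 3.43 CPM.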

How the results depend on the processing

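Of the alternatives, the rise of Ptgs2 after TAC in HCN4F kept its call in all, whereas the count of genes called in WT after TAC (1 with the settings above) was 0 with no filter on low counts and 0 to 1 with 1 sample left out. The count after TAC in HCN4F (2) was 4 by adjusted p alone, beside 2081 of all 15292 genes, and 1 to 2 with 1 sample left out. HCN4F against WT gave 0 to 1 in Sham with 1 sample left out, and after TAC 0 with edgeR on the compared groups (Ptgs2 1.88, adjusted p = 0.0608) and 0 to 2 with 1 sample left out. DESeq2 on all groups called 2 other pathway genes in place of 1. It called 30 genes higher and 32 lower between genotypes in Sham where edgeR called 13 and 19, and 72 and 15 after TAC where edgeR called 6 and 5. For the interaction it called 25 and 15 of all genes where edgeR called 0.

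Replicate numbers did not pair the samples: deviations of 18 same-numbered pairs correlated at -0.12 to 0.159 and those of 54 other pairs at -0.239 to 0.201. With the replicate number as a block, the counts were 0 in WT after TAC (Ptger4 1.48, adjusted p = 0.131), 0 for HCN4F in Sham (Ptger4 2.16, 0.0614) and 0 for HCN4F after TAC (Ptgs2 1.78, 0.0984, edgeR).

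Differences near 0 changed sign. With no filter Ptger1 in WT after TAC was 0.006 and Ptgs1 in HCN4F after TAC was 0.001, and with the block Ptger1 in WT was 0.097. With 1 sample left out, ranges in WT after TAC were -1.15 to 0.20 for Ptges, -0.19 to 0.11 for Ptger1 and -0.10 to 0.29 for Hpgd. In HCN4F after TAC they were -0.061 to 0.063 for Ptgs1, -0.14 to 0.12 for Ptger1 and -0.44 to 0.014 for Ptger4. For HCN4F in Sham they were -0.01 to 0.13 for Ptgs1 and -0.25 to 0.22 for Ptgfr, and after TAC -0.23 to 0.11 for Ptger1, -0.60 to 0.42 for Ptgfr and -0.26 to 0.12 for Hpgd. Ptges had no value with a mean of at least 1 CPM required. The causes were not tested. WT-TAC has 2 samples, and a lone WT-TAC sample was assumed to vary like the other groups.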
